A study of Tupaia belangeri chinensis with 12 samples.

Results

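The cortical plate (CP) and the inner subventricular zone (ISVZ) of the fetal cortex were compared in the Chinese tree shrew (Tupaia belangeri chinensis), a small mammal studied as a relative of primates. The 3 CP libraries and the 3 ISVZ libraries were chosen by the layer in their titles, and they are 6 of the 12 libraries of a series that also holds the ventricular zone (VZ) and the outer subventricular zone (OSVZ). Every library was labelled embryonic day 37, and no strain, genotype or treatment is given. Whether the layers differ in more than their position in the wall is therefore not known. Each layer was cut by laser from Nissl-stained frozen sections, and poly(A) RNA was sequenced. Nothing in the labels ties the 3 libraries of one layer to different animals. The p-values rest on the spread within layers over all 12 libraries, moderated across genes, and that spread may be technical. In bulk tissue of this kind, fewer cells of a type and less RNA per cell cannot be told apart.

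The ISVZ is a germinal layer. Radial glia and the intermediate progenitors that they produce divide there, newborn projection neurons pass through it on their way outward, and interneurons born in the ventral forebrain migrate along it. The CP lies beneath the marginal zone and holds neurons that have stopped dividing, have reached their place, and are growing axons, dendrites and first synapses.

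Levels are given as scaled FPKM, the deposited fragments per kilobase of transcript and unit of library size, after scaling each library by 1 factor. A log2 difference is CP minus ISVZ on log2 of scaled FPKM plus 1, with its standard error (SE) from limma, and it understates the change of genes with low levels. A gene passed where its limma p-value, adjusted over the 14107 genes tested, was under 0.05. Genes were tested at 1 or more in at least 3 of the 12 libraries, out of 81414 gene IDs. Summed FPKM per library ran from 246758 to 270562 in these 6 libraries, and 12159 to 12879 genes reached 1 FPKM. Depth cannot be read from FPKM, and the median half-width of the deposited bounds was 9.22% to 12% of the value.

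The library ISVZ 1 stood apart from the other ISVZ libraries. Its Pearson r across genes was 0.962 with ISVZ 2 and 0.961 with ISVZ 3, against 0.973 between those 2 libraries and 0.973 between ISVZ 1 and the first OSVZ library. ISVZ 1 held less of the interneuron genes and more of some projection neuron genes than ISVZ 2 and ISVZ 3. For some of the genes described below with ISVZ 1 apart, the difference without it is given. SOX2 and BCL11B are among those for which it is not.

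In all, 6472 genes (45.9%) passed, of which 3053 (21.6%) were higher and 3419 (24.2%) were lower in CP. Of these, 1221 (8.66%) were at least 2-fold higher and 1147 (8.13%) at least 2-fold lower. The median log2 difference of all genes tested was -0.04. That median and the shares of 21.6% higher and 24.2% lower are the background for the list counts below. The 3 CP values lay wholly above the 3 ISVZ values in 3688 genes (26.1%) and wholly below in 4222 (29.9%), so the groups did not overlap in 7910 (56.1%). Most of the largest differences were lower in CP: 28 genes were lower and 2 higher in CP by at least 4 on the log2 scale. Without ISVZ 1, 2752 genes were higher and 2996 lower.

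Genes that define the layers were examined before the others. PAX6, which radial glia use to stay progenitors (TSDBGID.11622, chromosome 18, 18383836 to 18414550), stood at 0.354, 0.188 and 0.761 scaled FPKM in CP 1 to 3 and at 27.5, 12.8 and 18.6 in ISVZ 1 to 3. EOMES, the transcription factor that marks intermediate progenitors (TSDBGID.18855, chromosome 29, 15848104 to 15861221), stood at 0.185, 0.139 and 0.371 in CP and at 74.8, 31.9 and 56.6 in ISVZ. MKI67, a protein of dividing cells (TSDBGID.9178, chromosome 15, 40010282 to 40061758), stood at 0.692, 0.316 and 0.360 in CP and at 31.1, 22 and 44.1 in ISVZ. The groups did not overlap for any of the 3 genes, and all 3 were lower in CP, with log2 differences of -3.80 ± 0.27, -5.42 ± 0.28 and -4.47 ± 0.28 and limma adjusted p of 1.61e-06, 2.55e-07 and 8.59e-07. TBR1, a transcription factor of early-born projection neurons, stood at 24.4, 19.2 and 37.1 in CP and at 18.5, 16.4 and 14.8 in ISVZ. Its groups did not overlap, but the difference of 0.62 ± 0.31 did not pass (adjusted p = 0.127). The annotated span of TBR1 overlaps PSMD14, which is at 44.0 in CP and 41.7 in ISVZ, so its level is uncertain.

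**Figure D1:**
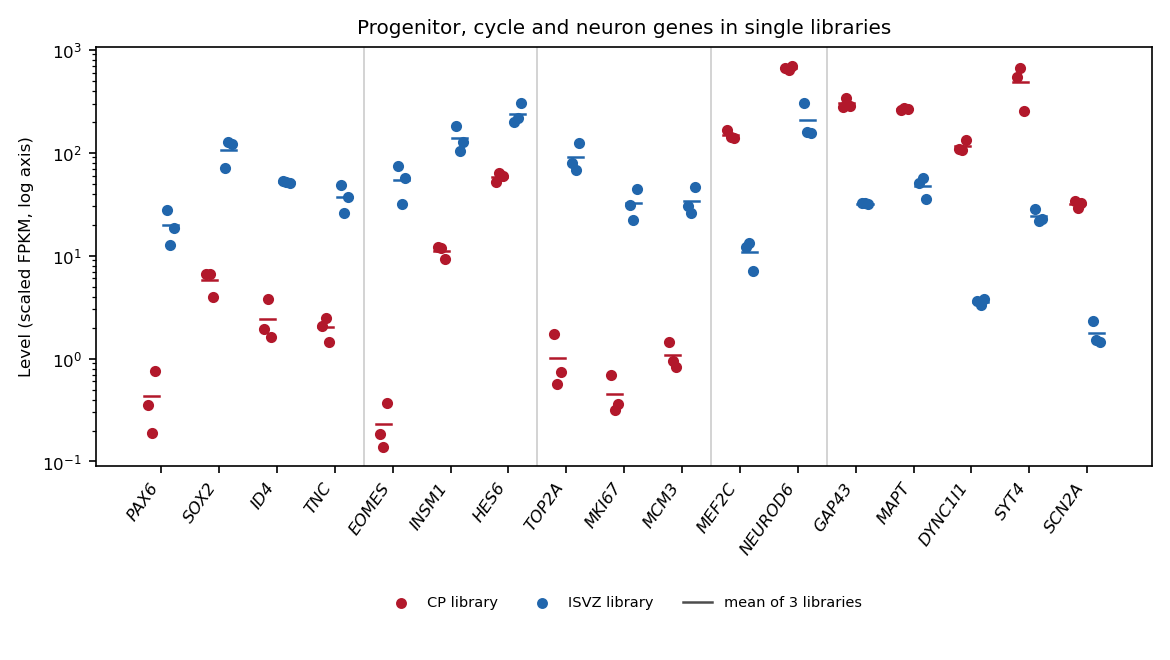
Levels of 17 genes in scaled FPKM on a log axis, 1 point per library, CP in red and ISVZ in blue, with bars at the mean of 3 libraries. From left to right the blocks hold radial glia, intermediate progenitor, division, projection neuron and neurite or excitability genes; in the first 3 blocks the CP points lie below the ISVZ points, and in the last 2 above them, for each gene shown.

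Beyond these markers, the genes with the largest differences each way were of several kinds. Highest was DYNC1I1, an intermediate chain of the motor dynein (TSDBGID.22849, chromosome 6, 100964038 to 101338314), at 107, 106 and 131 in CP against 3.64, 3.31 and 3.76 in ISVZ. The ratio of the layer means was 32.2, and the log2 difference was 4.66 ± 0.20 (limma adjusted p = 1.19e-07). SYT4, a vesicle protein of the synaptotagmin family, followed with 541, 668 and 251 against 28.6, 21.5 and 22.7 (log2 difference 4.17 ± 0.66). The adhesion protein CLMP rose from 0.871, 0.221 and 0.576 in ISVZ to 28.8, 18.6 and 23.8 in CP. C1QL3, a secreted synaptic organiser of the C1q family, rose from at most 0.570 in any ISVZ library to 9.98, 13.2 and 47.2 in CP, and CALN1, a neuronal calcium-binding protein, from at most 1.14 to 31.4, 21.2 and 23.6. The neuropeptide CCK was at 34.5, 85.9 and 51.7 in CP and at 7.32, 8.53 and 0.207 in ISVZ. RIT2, a small GTPase of neurons (log2 difference 3.54 ± 0.67), the cation channel TRPM3 (3.54 ± 0.45) and NWD2 (3.59 ± 0.26) were also higher. GPX1 was listed among the largest by the same rule, with 19.9, 26.3 and 38.7 in CP and 4.66, near 0 and near 0 in ISVZ. Its span of 657 bases overlaps RHOA, whose mean is 79.3 in CP and 108 in ISVZ, so the level of GPX1 is uncertain.

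On the side of the ISVZ, NEUROD4, a proneural transcription factor, stood at 79.5, 34.5 and 53.7 and was listed at 0.0205, 0 and 0.339 in CP. TOP2A, the topoisomerase that untangles chromosomes (TSDBGID.9847, chromosome 16, 66577202 to 66611869), stood at 79.5, 67.3 and 123 in ISVZ and at 1.73, 0.571 and 0.743 in CP, with a log2 difference of -5.49 ± 0.27 (adjusted p = 1.89e-07). CDCA3, which drives mitotic entry, was at 53.1, 47.1 and 94.6 against 1.72, 0.723 and 0.377, although its span overlaps a copy of TPI1 at 48.1 in CP and 32.5 in ISVZ. CKS2, a partner of the mitotic kinase, was at 112, 92.5 and 186 against 5.32, 4.33 and 3.08. TACC3 of the spindle (-4.16 ± 0.23), PIMREG (-4.16 ± 0.20) and PCLAF, which binds the replication clamp (-4.29 ± 0.22), were lower too, and KIF22, a chromosome motor at 19.9, 19.8 and 42.9 in ISVZ, was at or near 0 in each CP library. CRABP1, which binds retinoic acid, stood at 43.1, 74.2 and 54.8 in ISVZ, above the layer means of 17.4 in VZ and 20.9 in OSVZ, and at 1.46, 4.25 and 0.545 in CP (log2 difference -4.39 ± 0.91).

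Abundant genes differed less in ratio but made up more of the RNA. STMN2, a regulator of microtubules in growing axons, was at 1867, 1941 and 1626 in CP and at 532, 797 and 600 in ISVZ. TUBB3, the neuronal beta tubulin, was at 1026, 1664 and 1629 against 423, 690 and 609. RTN1, a neuronal protein of the endoplasmic reticulum, rose by 1.71 ± 0.19 and the adaptor YWHAZ by 1.05 ± 0.13 on the log2 scale. Among abundant genes that were lower in CP were DBI, an acyl-CoA binding protein, at 152, 111 and 65.8 against 704, 568 and 571, and IGFBPL1 at 59.2, 50.5 and 140 against 522, 345 and 388. The ribosomal protein RPL8 fell by 1.06 ± 0.13 on the log2 scale.

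**Figure D2:**
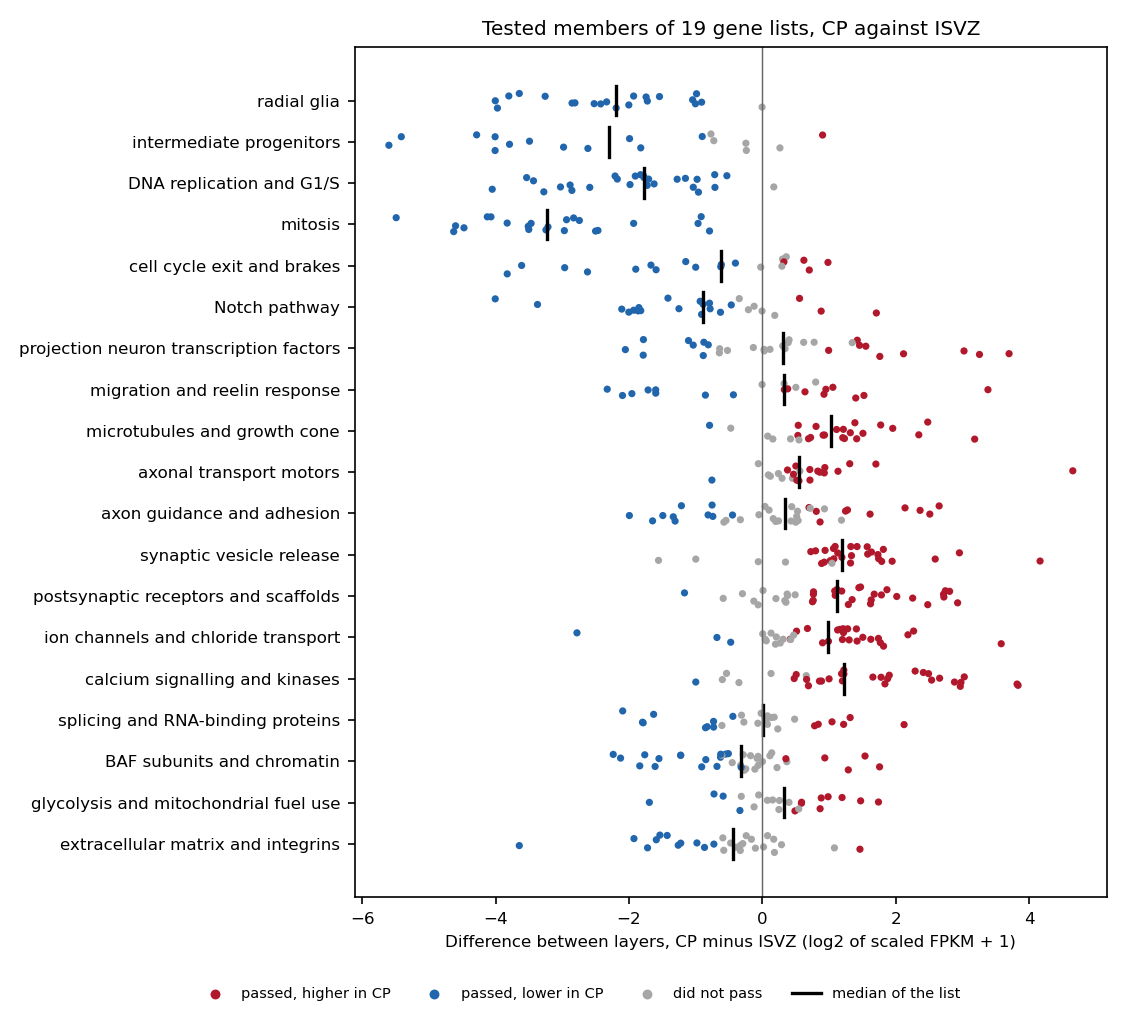
Log2 difference (CP minus ISVZ, log2 of scaled FPKM plus 1) of every tested member of 19 gene lists, 1 point per gene, red where it passed higher in CP, blue where it passed lower and grey where it did not pass, with a black bar at the list's median. The medians of the radial glia, progenitor and division lists lie between -3.23 and -1.78, and those of the synaptic vesicle, postsynaptic and calcium lists between 1.12 and 1.22.

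Radial glia genes were lower in CP almost throughout. Of 23 genes in the list 21 were tested, 20 were lower and 0 higher, and the median log2 difference was -2.19. SOX2, a transcription factor of neural stem cells, stood at 6.64, 6.69 and 3.92 in CP against 70.9, 126 and 122. ID4, an inhibitor of proneural factors, stood at 1.92, 3.76 and 1.61 against 53.6, 51.7 and 51.1. The matrix protein TNC stood at 2.07, 2.49 and 1.46 against 48.3, 26.2 and 37.5. For these 3 genes every CP library lay below every ISVZ library, with log2 differences of -3.97 ± 0.22, -4.0 ± 0.20 and -3.65 ± 0.23. The intermediate filament genes VIM and NES, which build the radial fibre, differed by -2.85 ± 0.22 and -2.19 ± 0.15, and the glutamate transporter SLC1A3 by -2.81 ± 0.28. PTPRZ1, a receptor phosphatase, passed with a smaller difference, at 69.3, 32.8 and 39.1 in CP against 130, 78.1 and 70.1 (adjusted p = 0.0128, and 0.0510 without ISVZ 1, 0.0555 without CP 2 or 0.0582 with no filter on low values). CDH2, the N-cadherin that neurons also use, was at 38.3, 46.4 and 55.2 against 33.1, 63.1 and 47.1 and did not pass. FABP7, the brain fatty acid binding protein, was listed at 0 in each of the 6 libraries, while an annotated copy, FABP7li1, was at 46.1, 38.8 and 46.8 in CP and 285, 258 and 337 in ISVZ; how reads were divided between them is not known, and the span of the copy overlaps SERINC1, at 253 in CP and 124 in ISVZ on average. FAM107A, the other member not tested, has a copy that did not pass: FAM107Ali1 was at 5.38, 8.63 and 4.22 in CP and 3.41, 6.38 and 4.47 in ISVZ (0.28 ± 0.40, adjusted p = 0.589).

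Among genes of intermediate progenitors, 12 of 18 tested were lower in CP and 1 was higher, with a median of -2.30. INSM1, a zinc finger factor that drives the birth of basal progenitors, stood at 12, 11.9 and 9.24 in CP against 183, 103 and 128 in ISVZ. NHLH1, a transcription factor of newly born neurons, stood at 0.0350, 0.132 and 0.216 against 29.6, 13.1 and 23.5, and GADD45G at 1.54, 1.78 and 2.92 against 38.0, 34.1 and 52.6. NEUROG1, a proneural factor, was listed at 0, 0 and 0.0761 in CP and at 29.1, 7.14 and 17.3 in ISVZ. HES6, a Notch antagonist, remained well above 0 in CP, at 52.4, 64.1 and 59.6 against 199, 218 and 301 (log2 difference -1.99 ± 0.19). NEUROD1, which acts after EOMES, was at 7.12, 13.6 and 19.8 in CP and 8.82, 12 and 10.1 in ISVZ and did not pass. TMEM158 was the member higher in CP, at 2.56, 4.93 and 3.34 against 1.97, 1.14 and 1.19. PENK, a neuropeptide gene and one of the 12 lower members, was uneven in ISVZ, at 7.25, 93.0 and 104, with 0.922, 1.58 and 2.93 in CP. Its log2 difference was -4.01 ± 0.99, and -5.20 without ISVZ 1. ISVZ 1 was the lowest ISVZ library for PENK, as for the interneuron marker DLX1 below, but the highest for EOMES. The means of PENK were 5.85 in OSVZ and 74.9 in VZ, against 44.2 and 57.3 for EOMES. Which cells hold PENK here was not tested.

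DNA replication was lower in CP in 26 of 27 tested genes of the G1/S list, with a median of -1.78, and 0 were higher. MCM3, a subunit of the replicative helicase, stood at 1.45, 0.957 and 0.819 in CP against 30.1, 25.7 and 46.9, with a log2 difference of -4.05 ± 0.23. The differences of the 6 helicase subunits ranged widely. MCM5 and MCM6 differed by -2.88 ± 0.21 and -3.03 ± 0.22, MCM4 and MCM7 by -1.71 ± 0.20 and -1.83 ± 0.16, and MCM2 by -0.96 ± 0.18, with 7.62, 7.29 and 7.61 in CP and 18.5, 11.1 and 18.1 in ISVZ. TYMS and RRM2, which make nucleotides, differed by -3.54 ± 0.23 and -3.43 ± 0.24, and UHRF1, which keeps DNA methylation through replication, by -3.28 ± 0.22. The origin protein ORC1 was at or near 0 in each CP library and at 2.90, 2.30 and 6.68 in ISVZ. SLBP, the histone mRNA binding protein, was at 25.8, 26.9 and 26.4 in CP and 21.3, 22.3 and 26.5 in ISVZ and did not pass; its span overlaps that of TACC3. PCNA, RRM1 and CDC6 fell below the filter, and 3 copies of RRM1 were lower in CP by 0.99 to 1.36 on the log2 scale.

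All 22 tested genes of the mitosis list were lower in CP, and the list's median of -3.23 was the lowest of the 19 lists. In CP their mean levels ran from 0.0299 to 1.77, and in ISVZ from 0.959 to 89.9. A gene under 1 in every CP library, in this list or another, could pass the filter only through other layers. The shared direction of such genes was therefore partly set by the filter. AURKB, the kinase that corrects chromosome attachment, stood at 0.656, 0.282 and 0.288 in CP against 29.0, 25.0 and 49.1. KIF11, the motor that separates the spindle poles, stood at 0.498, 0.362 and 0.399 against 22, 19 and 31.9. CCNB2, a mitotic cyclin, stood at 0.854, 0.304 and 0.30 against 30.5, 28.1 and 50.8. ISVZ 3 was the highest of the ISVZ libraries for each of these 3 genes and ISVZ 2 the lowest. The smallest differences on the log2 scale were those of CDC25C (-0.79 ± 0.17), WDR62 (-0.92 ± 0.17) and CIT (-0.96 ± 0.23). Their levels averaged over both layers were low, at 2.19, 0.495 and 3.125. The log2 scale used understates change at such levels, so these need not be the smallest ratios. Another 8 mitosis genes fell below the filter under their own name, and 6 of them have annotated copies that were lower in CP, among them CCNB1li1 at 0.657, 0.520 and 0.348 against 29.5, 22.7 and 40.0 and NUSAP1li3 at 0.853, 0.432 and 0.363 against 36.4, 28.1 and 48.5. CCNA2, below the filter, went the other way, at 0.694, 0.729 and 0.522 in CP against near 0, 0.232 and 0.311 in ISVZ. ASPM, also below it, was near 0 in CP and at 0.105, 0.0493 and 0.143 in ISVZ.

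The regulators that drive or brake the cycle were divided, with 12 of 20 lower, 4 higher and 4 that did not pass. The D cyclins, which start the cycle with CDK4 and CDK6, went in opposite directions. CCND2 stood at 4.32, 4.42 and 3.13 in CP against 51.1, 47.8 and 84.3 (log2 difference -3.61 ± 0.22), and CCND1 at 3.18, 2.73 and 2.66 against 16, 9.62 and 15.4. CCND3 was higher in CP, at 3.60, 3.99 and 3.82 against 1.84, 1.75 and 2.27 (0.70 ± 0.14), although its span overlaps a copy of BYSL at 41.0 in CP and 34.4 in ISVZ. The inhibitors of CDK4 and CDK6 were opposed as well. CDKN2C (p18) stood at 0.645, 0.465 and 0.723 in CP against 21.5, 17.8 and 26.9, while CDKN2D (p19) stood at 31.5, 35.7 and 44.1 against 14.4, 18.7 and 21.9. CDKN1B (p27), a brake known from cells that leave the cycle, was lower in CP, at 9.43, 11.1 and 13.6 against 23.1, 27.2 and 28.3 (-1.15 ± 0.14). CDK5R1 (p35), the activator of the neuronal kinase CDK5, was higher at 120, 129 and 137 against 93.2, 85.0 and 71.8, and CDK5 itself differed by 0.29 ± 0.14 (limma adjusted p = 0.0999, and 0.0323 with the replicate number as a block). A copy of the antiproliferative gene BTG1, BTG1li1, was at 20.5, 24.1 and 21.7 in CP and 125, 130 and 108 in ISVZ.

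Notch signalling keeps progenitors from differentiating, and 17 of 25 genes of the pathway were lower in CP, with 3 higher and a median of -0.89. Of the receptors, NOTCH1 stood at 0.624, 0.280 and 0.235 in CP against 15.8, 9.49 and 15.2, and NOTCH2 and NOTCH3 differed by -2.11 ± 0.19 and -1.42 ± 0.21. Of the ligands, DLL1, DLL3, DLL4 and JAG1 were lower by 0.93 to 1.85 on the log2 scale, while JAG2 was higher at 8.44, 7.64 and 8.29 against 4.50, 4.19 and 3.22. MFNG, a glycosyltransferase that tunes the receptors, had the largest difference of the list, at 1.75, 1.33 and 1.00 in CP against 32.2, 32.4 and 47.0. The targets HES1 and HES5 differed by -2.0 ± 0.27 and -1.93 ± 0.27, whereas HEY1 was at 1.61, 2.47 and 2.52 against 2.87, 2.08 and 2.46 and did not pass. DTX4, a ligase of the Deltex family, was higher in CP at 15.6, 17.1 and 11.9 against 4.33, 3.74 and 3.36.

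Transcription factors of projection neurons did not move as 1 group. Of 31 tested, 9 were higher in CP, 8 lower and 14 did not pass, with a median of 0.31. The shares over all genes tested were 21.6% higher and 24.2% lower. MEF2C, a factor of maturing neurons (TSDBGID.6173, chromosome 11, 86004952 to 86196714), stood at 164, 142 and 138 in CP against 12.1, 13.3 and 7.04, with a log2 difference of 3.70 ± 0.33. RORB, a factor of layer 4, stood at 28.1, 19.4 and 13.3 against 1.16, 1.27 and 2.20, and BHLHE22, a factor of area identity and callosal neurons, at 113, 180 and 202 against 64.1, 33.4 and 21.9. NEUROD6, the most abundant of the list, stood at 666, 636 and 694 against 306, 158 and 154 (1.76 ± 0.50, adjusted p = 0.0142, 0.0528 without ISVZ 3 and 0.0686 with no filter on low values). For BHLHE22 and NEUROD6, ISVZ 1 was the highest ISVZ library. Without it the difference of BHLHE22 was 2.52 in place of 2.12, and that of NEUROD6 was 2.09 (adjusted p = 0.0119). FEZF2, which specifies neurons that project below the cortex, was variable at 19.5, 8.89 and 32.6 against 9.69, 3.54 and 5.76, and its groups overlapped (1.46 ± 0.40, adjusted p = 0.0114, and 0.0562 with no filter on low values). ZFPM2, a factor of layer 6, was higher by 1.43 ± 0.33.

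Several factors of the same list were lower in CP. MEIS2 stood at 19.8, 18.3 and 63.1 in CP against 100, 99.2 and 102 in ISVZ, so CP 3 held the highest CP value and still lay below each ISVZ library. FOXP2 was at 3.04, 0.440 and 0.628 against 5.35, 10.9 and 7.96, and FOXP4 at 1.92, 1.91 and 1.38 against 8.54, 7.19 and 9.63. POU3F3 differed by -1.04 ± 0.20 and NFIB by -0.89 ± 0.18. SOX11 and SOX4, which are active in newborn neurons, were still abundant in CP, at 110, 103 and 128 and at 57.6, 58.8 and 72.7, but lower than in ISVZ by 0.81 ± 0.15 and 0.88 ± 0.22 on the log2 scale. BCL11B, a factor of deep layers that interneurons also express, was at 9.97, 8.55 and 14.1 against 14.2, 30.5 and 31.9 and passed at an adjusted p of 0.0128, but not without CP 2 (0.0504), without ISVZ 2 (0.0506), without ISVZ 3 (0.0557) or with no filter on low values (0.0591). CUX2, known from upper layers and from their progenitors, was at 50.1, 30.0 and 23.7 against 40.6, 33.1 and 25.1 and did not pass.

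Migrating neurons read reelin, a protein secreted above the CP, through the receptors VLDLR and LRP8 and the adaptor DAB1. DAB1 stood at 35.1, 38.8 and 56.3 in CP against 4.65, 2.09 and 3.14 in ISVZ, a log2 difference of 3.38 ± 0.25. The receptors were opposed: VLDLR was higher in CP at 9.26, 5.72 and 7.98 against 3.30, 3.56 and 3.60, with an antisense gene in its span at 15.1 and 4.87 on average, and LRP8 was lower at 20.4, 21.8 and 23.5 against 51.9, 36.6 and 34.4. Of the 21 tested genes of migration and the reelin response, 9 were higher and 8 lower. The small GTPase RND2, which releases neurons from the multipolar stage, stood at 9.48, 6.01 and 6.98 in CP against 52.8, 32.8 and 39.5, and RND3 differed by -1.71 ± 0.34. UNC5D, a receptor of multipolar cells, was at 3.33, 5.58 and 4.58 against 32.6, 21.2 and 11.5, with ISVZ 1 the highest, and differed by -1.96, or by -1.62 without ISVZ 1. Among the members higher in CP, DCLK1, a microtubule kinase, differed by 1.52 ± 0.14 and SRGAP2, a regulator of neurite shape, by 0.64 ± 0.15. DCX, which stabilises microtubules in migrating neurons, was at 325, 325 and 323 in CP and 236, 334 and 219 in ISVZ and did not pass.

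Genes of the cytoskeleton of the axon were higher in CP. Of 26 tested genes of microtubules and the growth cone, 20 were higher and 1 lower, with a median of 1.02. GAP43, a protein of the growth cone (TSDBGID.4271, chromosome 1, 27385382 to 27502239), stood at 279, 342 and 284 in CP against 32.2, 32.4 and 31.6, a log2 difference of 3.19 ± 0.39. MAPT, the protein tau, stood at 262, 269 and 264 against 50.4, 56.6 and 35.5. MAP1B, which is abundant in young axons, stood at 388, 522 and 505 against 135, 214 and 184. The neurofilament gene NEFM differed by 2.35 ± 0.28 and INA by 1.78 ± 0.31. MAP2, of dendrites, was at 222, 215 and 225 against 197, 217 and 181 and did not pass; an antisense gene in its span is at 275 and 217. STMN1, which regulates microtubules, was abundant in both layers, at 2934, 3533 and 2288 against 1771, 2272 and 1876 (0.55 ± 0.24, adjusted p = 0.0818, and 0.0314 with the replicate number as a block). The most abundant of all genes tested in either layer was TUBA1Ali3, a copy of the alpha tubulin TUBA1A, at 6607, 7932 and 6014 against 2730, 4317 and 3599 (adjusted p = 0.00406, and 0.0741 with no filter on low values), while TUBA1A itself was listed at 0.

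Motors that carry cargo along the axon were also higher, with 15 of 23 higher and 1 lower and a median of 0.55. The kinesin KIF5A stood at 38.4, 36.5 and 34.4 in CP against 12.8, 11 and 8.22, and KIF3C differed by 0.71 ± 0.10 and the light chain KLC1 by 0.83 ± 0.12. The dynein intermediate chains were unlike each other. DYNC1I1 differed 32.2-fold between the means, while DYNC1I2, the form found in most cells, was at 49.7, 45.8 and 43.8 in CP and 40.1, 55.6 and 50.8 in ISVZ and did not pass (-0.06 ± 0.13). In ISVZ the level of DYNC1I1 per kilobase was thus far below that of DYNC1I2, and in CP it was above it in every library. KIF21A was the member lower in CP, at 20.6, 19.6 and 27.4 against 36.4, 39.7 and 38.8.

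Of 38 tested genes of axon guidance and adhesion, 10 were higher in CP, 10 lower and 18 did not pass. Among all genes tested, 21.6% were higher and 24.2% lower. Those higher were mostly adhesion proteins of the immunoglobulin family. NTM stood at 43.9, 26.7 and 30.4 in CP against 5.08, 4.45 and 3.74, CNTN1 at 43.3, 30.7 and 35.9 against 7.91, 6.03 and 3.46, and OPCML at 27.3, 22.8 and 22.5 against 6.18, 3.38 and 2.67. CHL1, LSAMP, L1CAM and NCAM1 differed by 2.14 ± 0.33, 1.28 ± 0.20, 1.25 ± 0.24 and 0.81 ± 0.13. Those lower included the semaphorin SEMA5A, at 0.613, 0.656 and 0.902 against 5.41, 4.89 and 7.5, the ephrin EFNB1, at 3.68, 5.12 and 5.48 against 15, 14.8 and 21.4, and the receptor EPHA4 (-1.33 ± 0.29). Of the netrin receptors, UNC5C was higher in CP by 1.62 ± 0.28, with an antisense gene in its span at 8.30 and 1.17 on average, while DCC was at 8.76, 6.10 and 9.29 against 4.92, 3.78 and 7.88 (0.50 ± 0.25, adjusted p = 0.127, and 0.0249 with the replicate number as a block).

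Genes of synaptic vesicle release were higher in CP in 26 of 31 tested cases, 0 were lower, and the median was 1.19. SYT11, a synaptotagmin of this list, was not found under its own name, and its copy SYT11li1 was lower in CP, at 44.6, 47.6 and 52.1 against 80.8, 77.0 and 88.4 (-0.76 ± 0.10). STX1A, a membrane fusion protein of the active zone, stood at 36.8, 52.4 and 38.7 in CP against 10.5, 12.3 and 8.12. SNAP25, its partner, stood at 98.5, 95.6 and 134 against 26.1, 44.8 and 27.4, and the calcium sensor SYT1 at 153, 133 and 120 against 48.2, 63.8 and 39.8. The groups did not overlap for any of these 3 genes. VAMP2, the vesicle partner, differed by 1.07 ± 0.18, CPLX1, a clamp of fusion, by 1.82 ± 0.22, and SYN1, which tethers vesicles, by 1.79 ± 0.26. Of the vesicular glutamate transporters, SLC17A7 stood at 37.1, 19.9 and 13.8 in CP against 8.88, 1.18 and 1.48 (2.59 ± 0.58), and SLC17A6 at 7.29, 9.31 and 2.93 against 20.3, 12.2 and 8.52 (-1.0 ± 0.43, adjusted p = 0.0819). ISVZ 1 was the highest ISVZ library for both transporters, and without it SLC17A7 differed by 3.29 and SLC17A6 by -0.69. BSN, a scaffold of the active zone, was at 2.98, 1.81 and 2.31 against 3.09, 2.40 and 2.02 and did not pass.

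On the postsynaptic side, 25 of 37 tested genes were higher in CP and 1 was lower, with a median of 1.12. GABA receptor subunits were unlike one another. The alpha subunit GABRA5 stood at 14.6, 10.9 and 12.9 in CP against 1.16, 0.625 and 0.668, and GABRA3 differed by 2.02 ± 0.31. GABRA2, in contrast, was at 11.1, 13.3 and 6.46 in CP and 18.9, 14.8 and 12.8 in ISVZ (-0.59 ± 0.23, adjusted p = 0.0566, and 0.0440 with the replicate number as a block). Among glutamate receptors, the metabotropic GRM5 stood at 20.0, 19.2 and 23.1 against 2.29, 2.49 and 1.59. The NMDA receptor subunits GRIN1 and GRIN2B differed by 1.87 ± 0.33 and 1.68 ± 0.22, with GRIN2B at 4.61, 2.85 and 2.70 in CP and at most 0.706 in ISVZ. Of the AMPA receptor subunits, GRIA2, which limits calcium entry, was at 33.9, 43.4 and 47.1 against 20.3, 14.9 and 12.3, while GRIA1 was at 81.2, 98.1 and 91.5 against 89.2, 129 and 72.1 and did not pass. The scaffold DLG2 differed by 1.63 ± 0.18. With the replicate number as a block, 2 of the 37 were lower.

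Ion channel and transporter genes were higher in 22 of 35 tested cases and lower in 3, with a median of 0.99. SCN2A, the sodium channel of the young axon (TSDBGID.3870, chromosome 1, 146719607 to 146875708), stood at 34.2, 28.9 and 32.7 in CP against 2.33, 1.53 and 1.45, a log2 difference of 3.58 ± 0.26. Its subunit SCN3B stood at 70.2, 81.7 and 80.8 against 13.4, 19.1 and 13.7, and SCN3A, the fetal channel, at 28.1, 24.1 and 24.6 against 9.92, 11.1 and 6.49. The calcium channel CACNA1E differed by 2.19 ± 0.36 and the potassium channel KCND2 by 1.63 ± 0.22. The sodium pump subunit ATP1B1 was at 100, 112 and 107 in CP against 26.6, 49.4 and 22.6. The chloride transporters were opposed, though with calls that did not hold in every setting. SLC12A5, which extrudes chloride from mature neurons, was at 7.03, 5.12 and 5.06 in CP against 2.87, 1.54 and 1.11 (1.28 ± 0.44, adjusted p = 0.0338), and its span overlaps NCOA5, at 24.6 and 26.7 on average. SLC12A2, which imports it, was at 3.81, 1.98 and 2.87 against 6.84, 4.87 and 3.96 (-0.68 ± 0.23, adjusted p = 0.0303). SLC12A5 did not pass without CP 1 (0.0965), CP 2 (0.0622), CP 3 (0.0589), ISVZ 2 (0.0825) or ISVZ 3 (0.113), with a pseudocount of 5 (0.0863) or with no filter on low values (0.128), and SLC12A2 did not pass without CP 2 (0.118), CP 3 (0.0613), ISVZ 1 (0.116) or ISVZ 2 (0.0564), with quantile normalisation (0.0520) or with no filter (0.103).

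**Figure D3:**
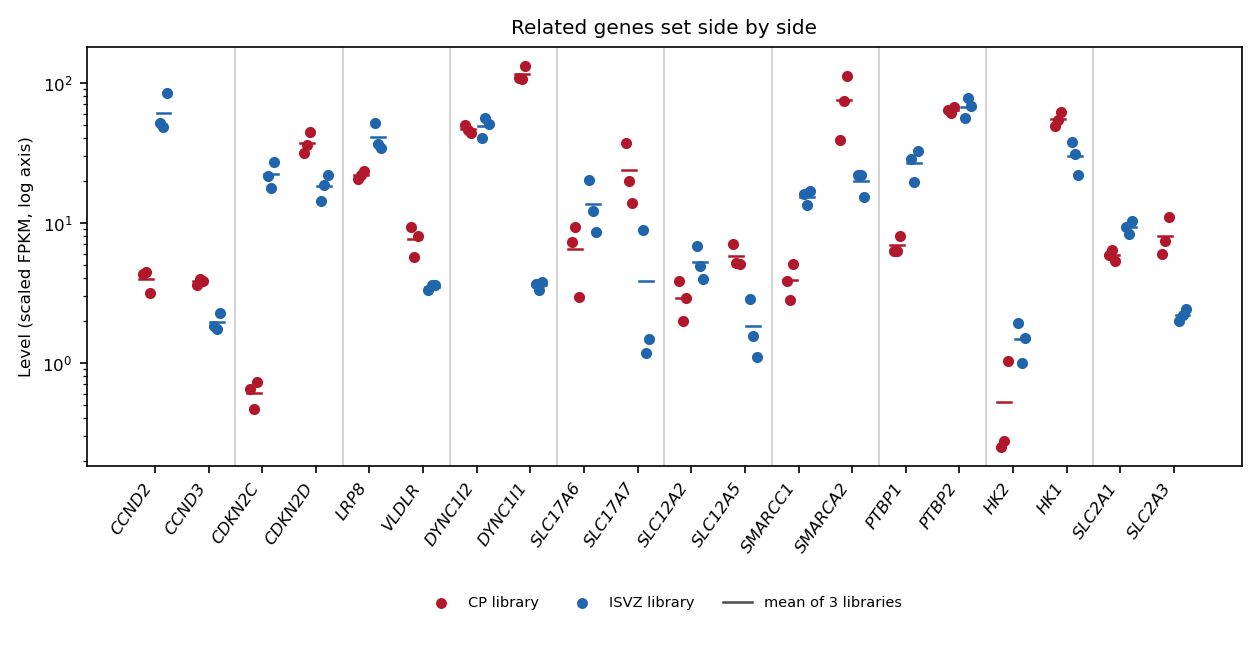
Levels of related genes set side by side, in scaled FPKM on a log axis, 1 point per library, CP in red and ISVZ in blue, with bars at the mean of 3 libraries. From left to right the pairs are D cyclins, cyclin kinase inhibitors, reelin receptors, dynein intermediate chains, vesicular glutamate transporters, chloride transporters, chromatin remodelling subunits, splicing regulators, hexokinases and glucose transporters.

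Calcium signalling and kinase genes were higher in 27 of 33 tested cases and lower in 1 (2 with the replicate number as a block), with a median of 1.22. PDE1A, a phosphodiesterase switched on by calmodulin, stood at 23.3, 21.4 and 28.2 in CP against 1.22, 0.643 and 0.490, a log2 difference of 3.84 ± 0.20. CAMK2B, the beta subunit of the synaptic calcium kinase, stood at 66.2, 53.4 and 47.3 against 10.7, 7.72 and 7.79. PRKCB, a protein kinase C, stood at 12.7, 31.4 and 17.1 against 1.68, 1.29 and 1.41. The adenylyl cyclase ADCY1 differed by 2.98 ± 0.33 and ITPR1, the calcium release channel, by 2.97 ± 0.31. NRGN, which binds calmodulin in spines, was at 12.6, 48.4 and 12.8 in CP and was listed at 1.01, 0 and 0.624 in ISVZ. HPCAL1 was the member lower in CP, at 4.95, 6.17 and 3.33 against 13.4, 9.12 and 9.07. HPCA, a related calcium sensor, was at 21.7, 22.1 and 19.4 in CP and 56.6, 22.7 and 15.3 in ISVZ, with ISVZ 1 the highest, and did not pass (-0.35, and 0.17 without ISVZ 1).

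Splicing regulators and RNA-binding proteins were divided, with 6 of 28 higher, 9 lower and 13 that did not pass, and a median of 0.01. Over all genes tested, 21.6% were higher and 24.2% lower. PTBP1 represses neuronal exons in progenitors. It stood at 6.32, 6.32 and 8.04 in CP against 28.7, 19.4 and 32.4, a log2 difference of -1.80 ± 0.18, while PLPPR3, whose span overlaps its own, was higher in CP (56.6 against 31.3 on average). Its relative PTBP2, which takes its place in young neurons, was at 63.5, 60.8 and 66.8 against 55.7, 78.2 and 68.1 and did not pass. The Musashi genes MSI1 and MSI2, which hold translation in stem cells, differed by -1.63 ± 0.15 and -1.79 ± 0.12, and QKI by -2.09 ± 0.17, with 7.13, 6.94 and 4.22 in CP and 25.0, 32.3 and 29.3 in ISVZ. Among those higher in CP, KHDRBS2, which splices synaptic transcripts, stood at 17.4, 14 and 31.1 against 3.37, 3.99 and 3.86, and RBFOX1 at 31.7, 25.3 and 21.2 against 15.3, 13.1 and 8.41. RBFOX3, known as the neuronal antigen NeuN, was at 11.6, 12 and 7.14 against 6.76, 5.88 and 3.37. The neuronal ELAV proteins did not follow: ELAVL2 was lower in CP by 0.73 ± 0.20, and ELAVL3 and ELAVL4 did not pass.

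The BAF complex remodels chromatin and exchanges subunits when progenitors become neurons. Of the subunits of the neuronal form, DPF1 stood at 57.0, 54.8 and 46.3 in CP against 16.2, 20.6 and 15.8, and ACTL6B at 39.1, 39.4 and 41.1 against 19.8, 24.3 and 17.5. Of the progenitor form, SS18 was at 9.71, 5.62 and 6.75 against 13.5, 13.9 and 15.8, and ACTL6Ali2, an annotated copy of ACTL6A, was at 5.06, 5.54 and 4.25 against 17.1, 22.2 and 28.5. SS18L1, the neuronal counterpart of SS18, was at 15.3, 14.3 and 12.8 against 15.8, 13.3 and 10.4 and did not pass. The ATPase SMARCA2 was higher in CP at 38.9, 73.6 and 112 against 22.1, 22.1 and 15.3, whereas SMARCA4 differed by -0.25 ± 0.13 (adjusted p = 0.156, and 0.0482 with the replicate number as a block). The core subunits SMARCC1 and SMARCD1 were lower by 1.76 ± 0.17 and 2.24 ± 0.30 on the log2 scale, though CSPG5, which overlaps SMARCC1, was higher in CP (34.2 against 16.7 on average).

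In the whole list of BAF and other chromatin genes, 5 of 38 were higher and 17 lower, with a median of -0.32. The polycomb methyltransferase EZH2 was at 11.5, 11 and 13.2 in CP against 34.0, 33.6 and 43.2, and its partners EED and SUZ12 differed by -0.63 ± 0.11 and -0.61 ± 0.14. CHD7, a remodeller of stem cells, stood at 0.617, 0.180 and 0.573 against 5.15, 5.41 and 5.33, while CHD5, a remodeller of neurons, was higher at 13, 12 and 10.6 against 6.74, 4.48 and 2.39. REST, which silences neuronal genes outside neurons, was low in both layers, at 1.21, 1.03 and 0.835 against 2.12, 2.11 and 2.11, and its corepressor RCOR2 was at 15.4, 13.4 and 11.3 against 53.5, 45.6 and 51.3. Of the DNA methyltransferases, DNMT3A was lower in CP by 0.68 ± 0.13 on the log2 scale and DNMT1 did not pass.

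Of 22 tested genes of glycolysis and mitochondrial fuel use, 9 were higher and 4 lower, and the median was 0.33. The neuronal enolase ENO2 stood at 26.9, 30.3 and 34.3 in CP against 5.11, 12.3 and 9.11, with ATN1, which overlaps it, at 27.1 and 24.5 on average, while ENO1 was listed at 0 and its abundant copy ENO1li3 was at 359, 443 and 310 against 336, 278 and 403 and did not pass. Hexokinase 1 (HK1) was higher in CP, at 48.8, 53.7 and 61.9 against 37.4, 31.0 and 22. HK2 was lower, at 0.251, 0.278 and 1.03 against 1.92, 0.996 and 1.51; its groups overlapped, and it did not pass without CP 1 (adjusted p = 0.0918), CP 2 (0.0900), ISVZ 1 (0.0931) or ISVZ 3 (0.0687), with quantile normalisation (0.0703), with a pseudocount of 5 (0.0804) or with no filter on low values (0.0867), against 0.0265 as fitted. The glucose transporters were opposed, with the neuronal SLC2A3 at 5.99, 7.37 and 10.9 against 1.97, 2.19 and 2.42 and SLC2A1, of vessels and glia, at 5.86, 6.35 and 5.33 against 9.30, 8.28 and 10.3. COX7A1, a subunit of cytochrome oxidase, was at 1.30, 0.822 and 1.85 in CP against 7.83, 4.43 and 7.46.

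Among matrix and integrin genes, 11 of 28 tested were lower and 1 was higher, with a median of -0.44. For comparison, 24.2% of all genes tested were lower and 21.6% higher. The receptor subunit ITGB1 stood at 21.3, 22.2 and 26.2 in CP against 63.8, 64.2 and 80.3, and ITGA6, ITGB5 and ITGB8 differed by -1.72 ± 0.25, -1.43 ± 0.22 and -1.59 ± 0.17. The proteoglycan BCAN was at 2.23, 2.29 and 1.26 against 13.3, 8.82 and 8.30, and SPARC at 15, 15.4 and 9.72 against 27.8, 30.6 and 38.3. TNR, a tenascin of neuropil, was the member higher in CP, at 4.73, 1.28 and 8.76 against 0.785, 1.00 and 0.693. The collagens of the vessel wall, COL4A1 and COL4A2, did not pass.

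Markers of interneurons, which enter the cortex from the ventral forebrain, were lower in CP in 10 of 15 tested cases and higher in 0, with a median of -2.75. DLX1, a transcription factor of these cells, stood at 16.2, 17.7 and 6.51 in CP against 44.7, 175 and 156 in ISVZ. DLX5 stood at 2.74, 3.28 and 1.25 against 11.8, 63.8 and 65.0, and GAD2, an enzyme of GABA synthesis, at 2.25, 2.38 and 0.534 against 5.73, 30.6 and 36.5. In each of these genes CP 3 was the lowest CP library and ISVZ 1 the lowest ISVZ library, and the groups still did not overlap. DLX1 and DLX2 overlap each other. The summed level of the list was 198, 153 and 63.5 in CP and 247, 687 and 672 in ISVZ, so ISVZ 1 lay closer to CP 1 than to the other ISVZ libraries. Without ISVZ 1 the log2 difference of DLX1 was -3.63 in place of -3.01, that of DLX5 was -4.31 in place of -3.52 and that of GAD2 was -3.75 in place of -2.96, and 9 markers were lower. GAD1, whose span overlaps ERICH2, passed at an adjusted p of 0.0393 and not with the replicate number as a block (0.0534), nor without CP 1 (0.0712), CP 3 (0.142), ISVZ 1 (0.0550), ISVZ 2 (0.108) or ISVZ 3 (0.0859), with quantile normalisation (0.152) or with no filter on low values (0.106).

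LHX6, a factor of interneurons born in the medial eminence, was at 24.1, 18.9 and 7.13 in CP against 28.8, 58.1 and 56.2 and differed by -1.54, or by -1.87 without ISVZ 1. SST, a neuropeptide of one interneuron class, was at 27.2, 44.1 and 13.3 against 13.5, 39.4 and 40.1 and did not pass. NPY was at 78.5, 27.4 and 17.4 against 51.8, 44.4 and 89.3 and did not pass either. MAF and ERBB4 did not pass at limma adjusted p of 0.0892 and 0.0669, and passed with the replicate number as a block at 0.0175 and 0.0102. GSX2, a factor of ventral progenitors, was at 0.333, 0.0699 and 0.231 in CP and 4.4, 6.66 and 13.4 in ISVZ.

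**Figure D4:**
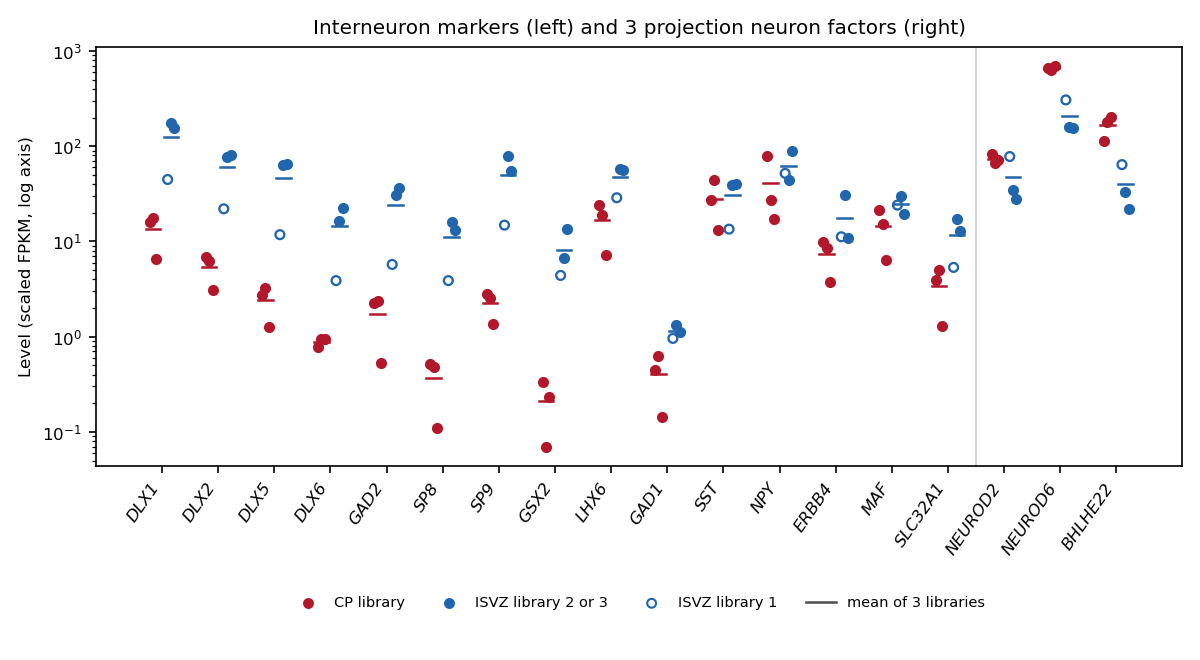
Levels of 15 interneuron markers (left of the line) and 3 projection neuron transcription factors (right) in scaled FPKM on a log axis, 1 point per library, CP in red, ISVZ in blue with ISVZ 1 as an open circle, and bars at the mean of 3 libraries. ISVZ 1 is the lowest ISVZ library for 12 of the markers, such as DLX1 at 44.7 against 175 and 156, and the highest for the 3 factors, such as NEUROD6 at 306 against 158 and 154.

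Markers of other cells that the captured tissue could hold were also read, and their part in the differences above was not tested. The counts of these small lists stand beside a share of 24.2% lower and 21.6% higher over all genes tested. Of microglia markers, 6 of 9 were lower in CP and 0 higher, with C1QB, a complement gene, at 0.341, 0.307 and 0.455 against 6.60, 4.79 and 3.16; the summed level was 7.97 to 8.73 in CP and 14.7 to 29.2 in ISVZ, and ITGAM was listed at 0 in the 3 CP libraries. Of astrocyte markers, 4 of 8 were lower and 4 did not pass. APOE was at 4.32, 16.1 and 1.79 against 61.1, 114 and 56.9. S100B was at or near 0 in CP 1 and CP 3, 0.157 in CP 2 and 19.7, 31.0 and 50.6 in ISVZ. The mean of S100B was 132.6 in VZ, above that of ISVZ. SPARCL1, with the highest CP mean of these markers, was at 91.7, 38.5 and 20.5 against 39.9, 39.0 and 45.3 and did not pass. The astrocyte sum was 42.9 to 116 in CP and 148 to 213 in ISVZ. Of oligodendrocyte precursor markers, OLIG2 and GPR17 were lower and 4 of 6 did not pass; OLIG2 was at 3.37, 1.5 and 0.891 against 19.8, 16.2 and 21.6, and the sum was 5.32 to 16.6 against 33.3 to 44.0. Of endothelial and mural markers, 4 of 8 were lower, with PDGFRB, of pericytes, at -1.21 ± 0.19 and CLDN5 at -0.75 ± 0.17; FLT1, whose span overlaps a more abundant gene, and KDR did not pass, and the sum was 18.8 to 33.7 against 38.0 to 51.5.

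Red cell genes were lower in CP, though spans of the first 2 overlap louder genes, with AHSP at 1.19, 1.57 and 1.31 against 2.24, 3.31 and 5.04, ALAS2 at 1.32, 0.747 and 0.175 against 1.96, 1.94 and 2.44, and the globin gene HBG, one of the most abundant of the genes at least 2-fold lower, at 187, 145 and 56.6 against 433, 432 and 601. Of choroid plexus markers 0 of 4 passed, and TTR was uneven at 0.745, 3.27 and 0.0217 in CP and 14.8, 48.4 and 0.122 in ISVZ (adjusted p = 0.255, and 0.0334 with the replicate number as a block, when 1 of the 4 markers was lower). Of markers of motile cilia 0 of 4 passed. Of 5 meningeal markers 1 was higher and 1 lower. LUM, a proteoglycan of connective tissue, stood at 12.9, 17.0 and 13.9 in CP against 0.191, 0.184 and 0.735 (3.52 ± 0.35), while COL1A2 and COL3A1 did not pass and DCN, whose span overlaps LUM, was at most 0.697 in CP. FOXC1 was the member lower in CP, at 0.597, 0.801 and 0.329 against 1.40, 0.957 and 0.993 (adjusted p = 0.0341, and 0.0681 without CP 1, 0.134 without CP 3, 0.117 without ISVZ 1, 0.0536 without ISVZ 3, 0.232 with quantile normalisation, 0.0522 with no filter on low values, and 0.0797 with the 6 libraries alone, or 0.0895 with the replicate number as a block as well). Of the Cajal-Retzius markers, RELN was at 7.15, 9.73 and 3.20 in CP against 3.35, 2.23 and 1.76 and did not pass, and 6 of the 8 fell below the filter. Stress and immediate early genes gave no common direction, and FOS, JUN and DNAJB1 did not pass; the span of DNAJB1 overlaps a more abundant gene. DDIT3 was lower by 0.72 ± 0.15 on the log2 scale, with DCTN2, which overlaps it, at 69.9 and 70.3 on average. JUNB was higher by 0.49 ± 0.16 (adjusted p = 0.0274, and 0.0930 without CP 2, 0.0755 without CP 3, 0.0613 without ISVZ 2, 0.0921 without ISVZ 3 and 0.0594 with the replicate number as a block in the 6 libraries alone).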

How the data were processed

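Poly(A) RNA of laser-captured layers was measured in 12 libraries, 3 per layer. The authors deposited 1 Cufflinks gene table per library with FPKM and its bounds, per the file headers, and the submitters' processing notes name HISAT2 and Cufflinks. For versions, genome build, annotation and strand: not given in the sources used here. Coordinates are those of the tables, with starts counted from 1. File names carry another embryonic day than the labels, and the labels were followed.

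FPKM rows of 1 gene ID were summed (360 IDs), 4 IDs that failed in a library were left out, and each library was divided by its median ratio over 10200 genes (factors 0.946 to 1.06). Log2 of scaled FPKM plus 1 of all 4 layers was fitted with limma 3.58.1 in R 4.3.3 (intensity trend, 8 residual degrees of freedom, Benjamini-Hochberg adjustment). The fit was tested on simulated data.

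Same-numbered CP and ISVZ libraries deviated together (r across 14107 genes = 0.261, 0.189 and 0.127, against -0.196 to 0.039 for other pairs). Deviations cancel over the 3 libraries of a layer, so part of this contrast is built in. The numbers may mark pairs, which the labels do not say. P-values with no setting named come from the unpaired fit, and a fit with the replicate number as a block was the alternative. With that block 7046 genes passed, against 6472. No 2 libraries held identical values.

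The gene lists and the comparison were chosen with earlier results of these data known. Genes were named by rule. Of genes that passed without overlap of the groups, the rule took the 15 largest differences each way. It also took the 10 most abundant of these at least 2-fold each way. Of each list it took up to 4 higher, 4 lower and the 2 most abundant that did not pass. Markers of other cells and 5 layer checks were added. Another 101 tested genes were named after their values were seen. Some genes that the rule names are not reported here. Overlap with a more abundant tested gene is stated beside the gene, and also holds for CDC25C, CIT, DLL1, DNMT1, ITGB5, MCM7, NUSAP1li3, POU3F3, SS18L1, SUZ12 and WDR62. Of 49 tested copies of list members missing or untested under their own name, 16 were higher, 22 lower and 11 did not pass. Such levels, antisense genes and copies (names ending in li and a number) are uncertain. Promoter sequences were not used here.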

Additional observations from a re-analysis of the deposited data

How the results depend on the processing

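Against 3053 genes higher and 3419 lower in CP, the 17 alternatives gave 2211 to 3308 higher and 2358 to 3738 lower. The highest counts came with the replicate block. The lowest came with FPKM of at least 5, where only 8802 genes were tested in place of 14107, so they do not show a lower share passing. Leaving out 1 library at a time gave 2507 to 2752 higher and 2762 to 3069 lower. Genes at least 2-fold higher numbered 1221, and 493 with a pseudocount of 5; those at least 2-fold lower numbered 1147, 1828 with a pseudocount of 0.1 and 442 with a pseudocount of 5, since the pseudocount sets how far low values are shrunk. The replicate block added 631 calls and lost 57, GAD1 being the one named gene that it lost. Of 264 named genes tested, which do not include SPARCL1, 219 passed and 208 of them kept the call in every alternative that could fit them. The call was lost in at least 1 alternative for BCL11B, FEZF2, FOXC1, GAD1, HK2, JUNB, NEUROD6, PTPRZ1, SLC12A2, SLC12A5 and TUBA1Ali3, and the cause was not tested. TUBA1Ali3, the most abundant gene tested in each CP and ISVZ library, has a difference of 0.0 under quantile normalisation by construction. Among named genes that did not pass, the direction of the log2 difference turned for BSN (0.024) with quantile normalisation, and for CUX2 (-0.073 and -0.034) and PSMD14 (-0.064 and -0.013) with quantile normalisation and with FPKM as deposited. Leaving out 1 library at a time moved BSN from -0.19 to 0.063, CDH2 from -0.24 to 0.22, COL4A2 from -0.080 to 0.24, CUX2 from -0.27 to 0.26, DCTN2 from -0.047 to 0.041, DYNC1I2 from -0.19 to 0.039, ENO1li3 from -0.0077 to 0.26, GRIA1 from -0.25 to 0.16, HEY1 from -0.21 to 0.018, HPCA from -0.74 to 0.17, NEUROD1 from -0.046 to 0.63, PSMD14 from -0.088 to 0.26, PTBP2 from -0.19 to 0.046, SS18L1 from -0.034 to 0.25 and SST from -0.63 to 0.30; the cause was not tested. Of 1054 counts of list members called under the alternatives, 65 moved by over 1.5 times. FPKM holds no read counts, so the depth is unknown and no interval for counting error can be given.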

Other observations

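Antisense and intergenic noncoding genes, which carry no protein name, passed less often than all genes tested (45.9%). Of 1159 antisense genes tested, 187 were higher and 197 lower in CP, so 33.1% passed limma, and of 529 intergenic noncoding genes 95 were higher and 88 lower (34.6%). Among the genes with a numbered ID of their own 48.9% passed. The loci below were picked from the 5 largest differences of each kind each way after their values were seen, and they are not always the largest. LINC-PLCL1-8 (chromosome 1, 180697037 to 180720574) stood at 21.0, 12.3 and 12.7 scaled FPKM in CP 1 to 3 and at 0.503, 0.293 and 0.216 in ISVZ 1 to 3. LINC-OAT-1 stood at 27.1, 34.1 and 32.8 against 3.68, 3.68 and 5.64. On the other side, LINC-TAF1D-10 (chromosome 11, 81813484 to 81930824) stood at 0.118, 0.215 and 0.511 in CP against 22.6, 39.6 and 14.6, and LINC-POU3F3-5 at 10.6, 7.17 and 4.79 against 58.1, 45.4 and 70.8. Only loci that passed and whose layers did not overlap could be picked, so the lack of overlap in all 4 was set by the rule.

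Among antisense genes, DLX6A-AS-1 (chromosome 6, 102255405 to 102307110), which lies over DLX6, stood at 15.2, 15.2 and 4.29 in CP against 34.6, 279 and 202 in ISVZ, so CP 3 and ISVZ 1 were the lowest of their layers, as they were for DLX1. Its log2 difference was -3.50, and -4.42 without ISVZ 1. GLI3-AS-2 was near 0 in CP 1, at 0.243 in CP 2 and at 0.0437 in CP 3 and stood at 11, 8.14 and 11 in ISVZ. NDRG1-AS-1 was higher in CP, at 20.5, 26.5 and 24.2 against 2.65, 0.953 and 2.06. The strand of the reads is not stated, so reads of an antisense gene and of its partner cannot be told apart.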
